A study of Mus musculus with 12 samples.

Results

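Semaphorins, ephrins and Slits are guidance cues that steer migrating cells, growing axons and sprouting vessels, and they act through plexins, neuropilins, Eph receptors and Robo receptors. The guidance genes described here were all genes whose platform symbol named a member of these families, with a gene represented by its brightest transcript cluster (averaged over the 12 arrays) where it had several; a transcript cluster groups the probes that the platform assigns to a locus. The rule found 57 genes in 58 clusters, of 30735 genes named on the array. They comprise 7 secreted and 12 membrane-bound semaphorins, 1 neuropilin, 9 plexins, 5 A-type and 3 B-type ephrins, 9 EphA and 4 EphB receptors, 3 Slits and 4 Robo receptors. A further 2 clusters carry a family symbol together with a microRNA gene (Nrp1 with Mir1903, Sema4a with Mir7011), and these are not used here.

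RNA from fetal mouse gonads at 14.5 days post coitum was measured on Affymetrix Mouse Transcriptome 1.0 arrays, with 1 pair of gonads per array and 4 arrays per group. XY FOXL2+ gonads carried Sf1-cre+/Tg together with the allele Rosa26-CAG-LSL-Foxl2+/f, in which a CAG promoter drives Foxl2 once Cre has removed a stop cassette. XX control and XY control gonads carried Sf1-Cre as well, on a Rosa26+/+ background, so the Cre transgene was common to all 3 groups. Cre driven by Sf1 recombines in gonadal somatic cells, and germ cells and vessels of the same sample are outside its usual domain. FOXL2 is the transcription factor that marks granulosa cells of the ovary. The strain was mixed 129Sv and C57Bl/6J.

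Secreted semaphorins of class 3 mostly bind neuropilins, which pair with plexins to signal, while membrane-bound semaphorins mostly bind plexins directly. Ephrins are themselves tethered to the cell surface and are met by Eph receptor tyrosine kinases on neighbouring cells, which makes the pair a system of contact signalling at tissue boundaries. Slits are large secreted proteins that repel cells bearing Robo receptors. In the fetal testis vessels and cells migrate in from the mesonephros, and cords become separated from the interstitium; guidance families are known for such sorting and vessel patterning in other organs.

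Foxl2 read 7.67, 8.62, 7.18 and 6.72 on the XY FOXL2+ arrays, against 8.08, 7.30, 7.14 and 7.39 on XX control arrays and 5.07, 5.55, 5.44 and 5.33 on XY control arrays (log2 signal, replicates 1 to 4). Every XY FOXL2+ array was above every XY control array, with a difference of 2.20 (adjusted p = 0.00122, exact permutation p = 0.0286, the smallest that 4 against 4 arrays can give). Of 5 genes of the gonadal soma (Nr5a1, the gene of SF1, with Wt1, Gata4, Emx2 and Lhx9), 2 were lower in XY FOXL2+ than in XY control (Nr5a1 and Lhx9) and 4 lower than in XX control (all but Gata4), beside 4.70% and 3.32% of all named genes. Their mean log2 signal was 11.03 to 11.55 in XY FOXL2+, 11.94 to 11.998 in XX control and 11.35 to 11.56 in XY control, and their part in the results was not tested. On principal components of all clusters, XY FOXL2+ replicate 1 stood apart on the second (-76.9 against -22.1 to 22.6 on the other arrays) and replicates 3 and 4 stood apart on the third (-49.7 and -44.2 against -12.7 to 35.6). Array weights, estimated from the spread of each array within its group, were lowest for XY FOXL2+ replicates 1 and 2 (0.296 and 0.506, against 0.728 to 2.06 for the other arrays). No array was left out, and values without single arrays are given where they change a call.

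Compared with XY controls, XY FOXL2+ gonads had higher Nrp2, Plxna4, Plxna2, Sema3e and Epha5 and lower Sema7a, Sema5b, Sema6c, Plxnd1, Plxnb1, Sema3c, Epha2, Slit3, Slit2 and Plxna1. Of the 57 genes, 5 were thus called higher (8.77%) and 10 lower (17.5%), beside 3.38% and 4.70% of all named genes and 2.46% and 4.67% of all clusters. Among named genes with a mean signal at or above the median of all clusters (6.23), a level that 50 of the 57 reached, 5.16% were higher and 7.28% lower. A call is an adjusted p under 0.05 from limma, with the Benjamini-Hochberg adjustment over 65956 clusters, and a bare value in brackets after a call that ended or appeared under another setting is that setting's adjusted p. In whole gonads fewer cells of a type and less RNA per cell cannot be told apart.

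XX control gonads differed from XY controls in more of these genes, with 13 higher (22.8%) and 20 lower (35.1%), beside 10.2% and 11% of all named genes, 7.17% and 10.2% of all clusters, and 15.7% and 16.4% of the named genes at or above the median signal. Set against XX controls, XY FOXL2+ gonads had 9 guidance genes higher (15.8%) and 11 lower (19.3%), beside 3.20% and 3.32% of named genes, 2.87% and 2.64% of all clusters and 4.90% and 5.34% of those at or above the median signal. The median difference over the 57 genes was 0.01 for XY FOXL2+ minus XY control, -0.03 for XX control minus XY control and -0.03 for XY FOXL2+ minus XX control, against medians of 0.02, -0.02 and 0.03 over all named genes. The median size of a difference, sign aside, was 0.18, 0.35 and 0.22, against 0.11, 0.13 and 0.11. The comparisons share their control arrays and are set side by side below without a measure of their likeness.

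**Figure D1:**
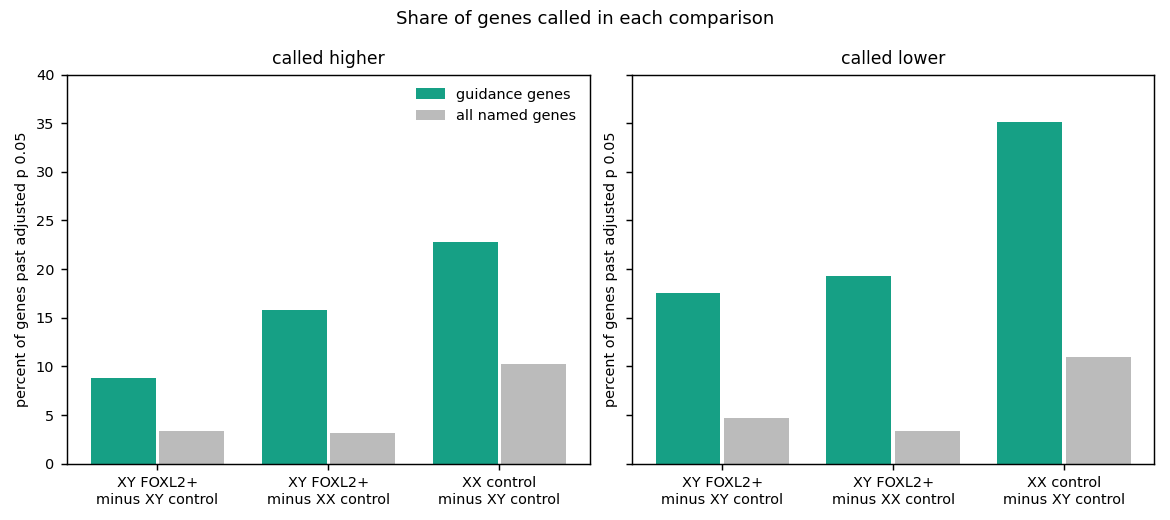
Percent of genes called higher (left) and lower (right) at an adjusted p under 0.05 in each comparison, for the 57 guidance genes (green) and all 30735 named genes (grey). The guidance genes had the larger share in each of the 6 pairs of bars, from 8.77% against 3.38% to 35.1% against 11%.

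Nrp2 had the largest rise of any guidance gene in XY FOXL2+ gonads. Neuropilin-2 is a co-receptor for class 3 semaphorins, Sema3f above all, and for the lymphatic growth factor VEGF-C. It read 10.63, 10.25, 10.54 and 10.52 on XY FOXL2+ arrays, against 8.81, 8.63, 8.34 and 8.56 on XX control arrays and 8.73, 9.06, 8.30 and 8.33 on XY control arrays. All 4 XY FOXL2+ arrays lay above all 8 control arrays, and the 2 control groups overlapped. The differences were 1.88 (SE 0.16, adjusted p = 1.61e-05) from XY controls, a 3.68-fold rise, and 1.90 (SE 0.16, adjusted p = 7.91e-05) from XX controls, 3.73-fold, while XX minus XY controls gave -0.02 with a 95% interval of -0.38 to 0.34. Its ligand Sema3f had no call, at 9.24 ± 0.20 in XY FOXL2+, 9.43 ± 0.02 in XX control and 9.33 ± 0.12 in XY control (SD, n = 4 each).

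Sema5b stood on the other side of both controls. Semaphorin 5B is a transmembrane semaphorin that repels neurites in the mouse retina together with Sema5A. Its signal was 9.22, 9.81, 8.61 and 8.53 on XY FOXL2+ arrays, against 10.30, 10.35, 10.14 and 10.15 on XX control arrays and 10.28, 9.94, 10.16 and 10.17 on XY control arrays. Each XY FOXL2+ array was below every control array, with replicate 2 nearest to them and replicates 3 and 4 farthest. XY FOXL2+ minus XY control was -1.09 (SE 0.22, adjusted p = 0.00977) and XY FOXL2+ minus XX control -1.19 (SE 0.22, adjusted p = 0.00838), while the controls differed by 0.10 (adjusted p = 0.848). Sema6c, a transmembrane class 6 semaphorin, and Plxnb1, the receptor of Sema4d, were lowest in XY FOXL2+ gonads as well. Sema6c averaged 7.29 ± 0.09, 7.63 ± 0.11 and 8.25 ± 0.11 in XY FOXL2+, XX control and XY control, and Plxnb1 9.25 ± 0.06, 9.62 ± 0.11 and 10.07 ± 0.05 (SD, n = 4 each). Both were called lower than in XY controls (-0.97, adjusted p = 1.74e-05, and -0.82, adjusted p = 4.43e-05) and more narrowly lower than in XX controls (-0.34, 0.0376, and -0.37, 0.0189). The calls against XX controls ended for Plxnb1 without XY FOXL2+ replicate 4 (0.0642) or XX control replicate 1 (0.0544), 2 (0.0562) or 3 (0.0512), and for Sema6c without XY FOXL2+ replicate 3 (0.0947) or 4 (0.112), XY control replicate 3 (0.0564) or any one XX control array (0.0641 to 0.1), and with a replicate block (0.0520). Both also ended with only the 2 groups compared in the fit (0.0731 for Plxnb1, 0.0798 for Sema6c).

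Among the secreted semaphorins, ligands moved in both directions. Sema3a, the class 3 semaphorin that collapses axonal growth cones through neuropilin-1, read 10.92, 10.91, 9.51 and 9.56 on XY FOXL2+ arrays, against 11.09, 10.98, 10.78 and 10.90 on XX control arrays and 9.41, 9.86, 9.23 and 9.35 on XY control arrays. XY FOXL2+ replicates 1 and 2 lay among the XX control arrays and replicates 3 and 4 among the XY control arrays. The difference from XY controls, 0.76 (adjusted p = 0.171), did not pass with this spread, and neither did that from XX controls (-0.71, adjusted p = 0.22; called lower with array weights, 0.0148), while XX control was 2.78-fold above XY control (1.47, SE 0.30, adjusted p = 0.00382).

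Sema3c, a cue of cardiac neural crest cells and vessels, moved the other way. It read 10.11, 9.62, 10.56 and 10.24 on XY FOXL2+ arrays, against 9.88, 9.73, 9.43 and 10.07 on XX control arrays and 10.98, 10.96, 11.05 and 10.79 on XY control arrays. Both other groups lay wholly below XY controls, with differences of -0.81 (SE 0.18, adjusted p = 0.0148) for XY FOXL2+ and -1.17 (SE 0.18, adjusted p = 0.00051) for XX control. The first of these calls ended without XY control replicate 3 (0.0504).

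Sema3e, which signals to Plxnd1 without a neuropilin, averaged 6.996 ± 0.34 in XY FOXL2+, 7.10 ± 0.12 in XX control and 6.43 ± 0.10 in XY control (SD, n = 4 each). It was higher than in XY controls in XY FOXL2+ gonads, by 0.56 (adjusted p = 0.0299), and in XX controls, by 0.67 (adjusted p = 0.00517). The call in XY FOXL2+ gonads ended without XY FOXL2+ replicate 2 (0.0761) or XY control replicate 1 (0.0555), 2 (0.0505), 3 (0.0792) or 4 (0.0850), or with only the 2 groups compared (0.0906), and its levels lie near those of silent genes, given below. Sema3d (0.10), Sema3f (-0.09) and Sema3b (0.03) had no call in any of the 3 comparisons, where values in brackets are log2 differences of XY FOXL2+ from XY control.

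Of the plexins, the semaphorin receptors, 5 of 9 passed in XY FOXL2+ minus XY control (2 higher, 3 lower), beside 3.38% and 4.70% of all named genes. In XX control minus XY control 8 of 9 passed (3 higher, 5 lower), beside 10.2% and 11%. The 5 lower include Plxnb3, whose group means lie under those of the silent genes given below. Plxna4, a receptor for class 3 semaphorins with neuropilins and for class 6 semaphorins without them, read 10.89, 10.57, 9.82 and 9.76 on XY FOXL2+ arrays, against 11.84, 11.72, 11.54 and 11.71 on XX control arrays and 9.19, 9.16, 8.71 and 8.69 on XY control arrays. The 3 groups did not overlap, and XY FOXL2+ lay between the controls, with replicates 1 and 2 nearer to XX than replicates 3 and 4. It rose 2.51-fold against XY controls (1.33, SE 0.23, adjusted p = 0.00327) and was 2.71-fold below XX controls (-1.44, SE 0.23, adjusted p = 0.00296). XX control minus XY control was 2.77 (SE 0.23, adjusted p = 5.03e-06), a 6.8-fold difference.

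Plxna2, another A-type plexin, showed the same order with little spread. Its signal was 10.40, 10.46, 10.28 and 10.31 on XY FOXL2+ arrays, against 10.98, 10.74, 10.65 and 10.89 on XX control arrays and 9.85, 9.73, 9.70 and 9.82 on XY control arrays. No group overlapped another. The differences were 0.59 (SE 0.09, adjusted p = 0.00165) from XY controls, -0.45 (SE 0.09, adjusted p = 0.0117) from XX controls and 1.04 (SE 0.09, adjusted p = 7.85e-06) between XX and XY controls, and the second was lost with only the 2 groups compared in the fit (0.0535).

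Plxnd1, the plexin that vessels use to read Sema3e, ran the other way. It read 11.94, 12.01, 12.13 and 12.20 on XY FOXL2+ arrays, against 12.04, 12.15, 11.82 and 11.97 on XX control arrays and 12.99, 13.04, 13.08 and 13.03 on XY control arrays. Every XY FOXL2+ array fell below every XY control array (-0.96, SE 0.09, adjusted p = 2.8e-05) and the values overlapped those of XX controls, with a difference of 0.07 and an interval of -0.12 to 0.27. XX control minus XY control was -1.04 (SE 0.09, adjusted p = 7.74e-06). Of 9 endothelial markers measured, 2 rose and none fell in XY FOXL2+ minus XY control, 1 was higher and 3 lower in XX control minus XY control (median -0.14), and the mean of their log2 signals was 9.67 to 9.93 in XY FOXL2+, 9.34 to 9.55 in XX control and 9.46 to 9.71 in XY control. Of 7 mural and smooth muscle markers, 7 were lower than in XY controls in both XY FOXL2+ and XX control. Their list means were 8.73 to 9.12, 8.51 to 8.90 and 10.02 to 10.38 in the same order. Beside these 2 lists, 3.38% of all named genes were higher and 4.70% lower in XY FOXL2+ minus XY control. In XX control minus XY control 10.2% were higher and 11% lower. The part of both lists in Plxnd1 was not tested.

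Plxnc1, the receptor of Sema7a, was the plexin in which the XY FOXL2+ arrays were widest apart. They read 12.31, 11.63, 13.33 and 13.42, against 11.44, 11.34, 11.24 and 11.37 on XX control arrays and 12.84, 12.56, 12.71 and 12.48 on XY control arrays. Replicates 3 and 4 were above every XY control, replicates 1 and 2 below every XY control and above every XX control. XY FOXL2+ minus XY control was 0.02 with an interval of -0.64 to 0.69, and XX control minus XY control was -1.30 (SE 0.31, adjusted p = 0.00966). XY FOXL2+ minus XX control was 1.33 (SE 0.31, adjusted p = 0.0246), a call that ended without XY FOXL2+ replicate 3 (0.0713) or 4 (0.0710) or any one XX control array (0.0518 to 0.0722), or with only the 2 groups compared (0.0842).

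Plxna1 fell in XY FOXL2+ gonads by 0.51 (adjusted p = 0.00258) and was lower in XX controls (-0.45, adjusted p = 0.00204). Plxna3 was called in XX control minus XY control alone of the comparisons (0.35, adjusted p = 0.00927), and Plxnb2, a receptor of class 4 semaphorins, in none (means 12.34 ± 0.13, 12.52 ± 0.14 and 12.39 ± 0.10 in XY FOXL2+, XX control and XY control).

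**Figure D2:**
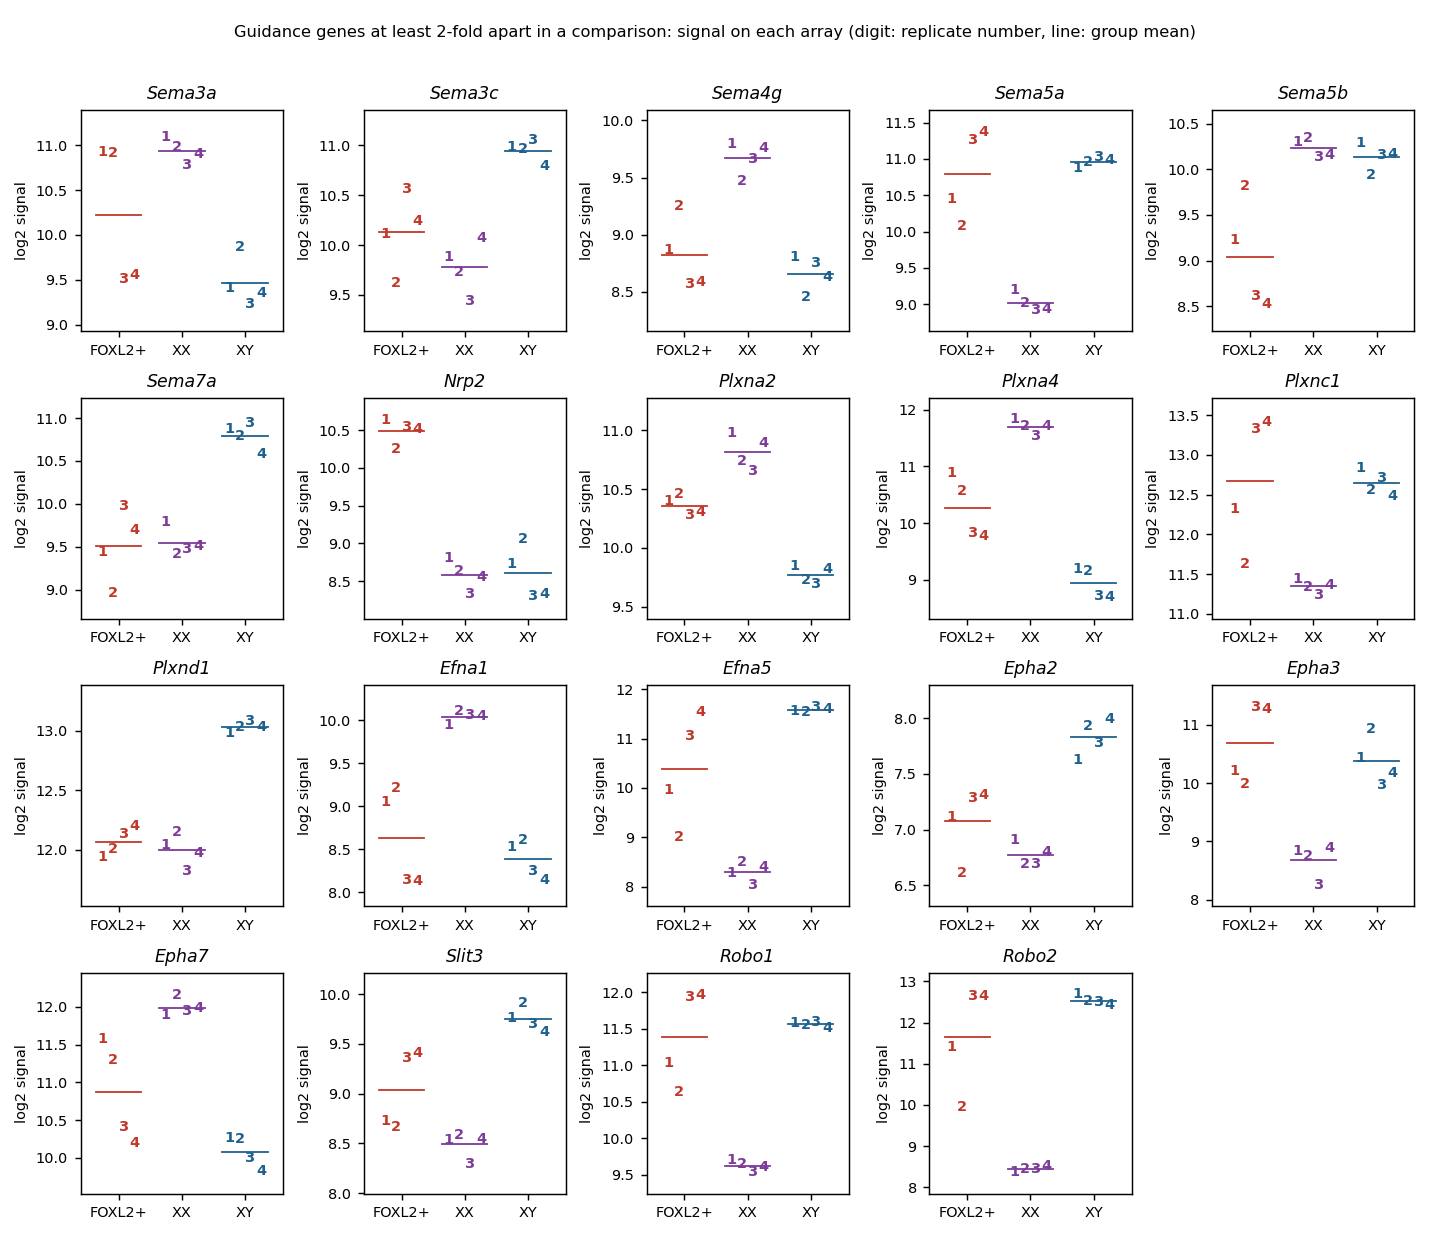
Log2 signal (y axis) of the 19 guidance genes that were called and at least 2-fold apart in XY FOXL2+ minus XY control or XX control minus XY control. Each digit is 1 array, placed by group (XY FOXL2+, XX control, XY control) and named by its replicate number, and each line is a group mean; Nrp2 is high on all 4 XY FOXL2+ arrays, and in Robo1, Robo2, Sema5a, Epha3 and Plxnc1 XY FOXL2+ replicates 3 and 4 lie above replicates 1 and 2.

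The RefSeq promoter windows (GRCm38.p6, 250 bases before to 50 after a gene's start, gene strand) were searched for 4 exact words on both strands, because XY FOXL2+ gonads differ from XY controls by a transcription factor. The forkhead word TGTTTAC was in 0 of 63 windows of 50 guidance genes, and in 3.65% of all 32851 windows. GTCAAGG, a core of the FOXL2 response element, was in 3 (Plxna2, Sema4c, Sema4d; 3.18% of all), CAAGGTCA, a site of SF1, in 1 (Sema4b; 1.56%), and AACAATG, a SOX word, in 2 (Ephb1, Plxnb3; 3.78%). GTCAAGG and CAAGGTCA can overlap in 1 stretch of sequence. The window of Nrp2, the gene with the largest rise, held none of the 4 words, which says only that these letters are not in this window. It is shown with those of Plxna2, Sema4b and Ephb1, in which capitals mark the match (for Plxna2 the word lies on the opposite strand, at -205 from the start; in Sema4b it begins at -244 and in Ephb1 at -133).
Nrp2, chr1:62703067-62703366, plus strand: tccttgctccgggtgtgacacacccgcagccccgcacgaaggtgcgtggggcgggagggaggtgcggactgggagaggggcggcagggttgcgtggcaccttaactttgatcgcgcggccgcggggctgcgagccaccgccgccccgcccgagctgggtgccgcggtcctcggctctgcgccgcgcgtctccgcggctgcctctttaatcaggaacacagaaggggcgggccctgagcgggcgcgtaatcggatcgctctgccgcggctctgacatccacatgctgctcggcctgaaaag
Plxna2, chr1:194619579-194619878, plus strand: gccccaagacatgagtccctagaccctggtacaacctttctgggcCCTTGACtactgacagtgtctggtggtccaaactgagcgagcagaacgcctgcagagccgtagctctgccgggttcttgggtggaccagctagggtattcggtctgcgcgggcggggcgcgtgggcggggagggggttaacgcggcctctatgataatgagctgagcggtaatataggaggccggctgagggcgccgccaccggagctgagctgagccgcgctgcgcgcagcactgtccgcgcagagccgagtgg
Sema4b, chr7:80186620-80186919, plus strand: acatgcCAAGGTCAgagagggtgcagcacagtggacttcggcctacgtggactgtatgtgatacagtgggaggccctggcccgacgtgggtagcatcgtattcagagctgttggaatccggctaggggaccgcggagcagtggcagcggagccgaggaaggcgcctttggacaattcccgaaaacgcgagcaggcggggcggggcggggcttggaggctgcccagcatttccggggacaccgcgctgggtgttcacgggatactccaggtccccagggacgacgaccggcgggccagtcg
Ephb1, chr9:102354644-102354943, minus strand: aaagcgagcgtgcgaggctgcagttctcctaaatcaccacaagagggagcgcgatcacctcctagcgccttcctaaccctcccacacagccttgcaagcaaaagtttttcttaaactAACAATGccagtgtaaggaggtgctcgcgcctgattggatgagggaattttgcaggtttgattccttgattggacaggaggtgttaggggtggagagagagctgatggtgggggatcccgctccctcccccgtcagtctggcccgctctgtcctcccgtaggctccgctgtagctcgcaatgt

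Of 12 membrane-bound semaphorins, 3 were called lower in XY FOXL2+ gonads than in XY controls (Sema7a, Sema5b and Sema6c) and none higher. Of all named genes 4.70% were called lower and 3.38% higher. The median difference over the 12 was 0.05, so the class did not fall as a whole. Sema7a, which is anchored by a lipid tail and signals through Plxnc1 and integrins, read 9.43, 8.96, 9.97 and 9.69 on XY FOXL2+ arrays, against 9.79, 9.41, 9.47 and 9.504 on XX control arrays and 10.87, 10.79, 10.94 and 10.58 on XY control arrays. All XY FOXL2+ arrays lay below all XY controls and around the XX controls. The fall was 2.43-fold (-1.28, SE 0.18, adjusted p = 0.000769), XX control minus XY control was -1.25 (SE 0.18, adjusted p = 0.000308), and XY FOXL2+ minus XX control was -0.03 with an interval of -0.42 to 0.36. Its receptor Plxnc1 had no call in XY FOXL2+ minus XY control.

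Sema5a, a transmembrane semaphorin with thrombospondin repeats, read 10.45, 10.08, 11.25 and 11.37 on XY FOXL2+ arrays, against 9.19, 9.02, 8.93 and 8.94 on XX control arrays and 10.88, 10.96, 11.02 and 10.99 on XY control arrays. Again replicates 3 and 4 were above every XY control and replicates 1 and 2 below, and no XY FOXL2+ array reached the XX range. XX control was 3.85-fold below XY control (-1.94, SE 0.23, adjusted p = 7.23e-05) and XY FOXL2+ 3.41-fold above XX control (1.77, SE 0.23, adjusted p = 0.000908), with -0.18 (interval -0.67 to 0.32) against XY control.

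Sema4g, a class 4 semaphorin that binds Plxnb2, read 8.87, 9.25, 8.56 and 8.59 on XY FOXL2+ arrays, against 9.79, 9.47, 9.66 and 9.76 on XX control arrays and 8.80, 8.45, 8.75 and 8.63 on XY control arrays. XY FOXL2+ arrays lay below the XX range, and all but replicate 2 lay within or near the XY range. XX control minus XY control was 1.01 (SE 0.15, adjusted p = 0.000338), XY FOXL2+ minus XX control -0.85 (SE 0.15, adjusted p = 0.0049) and XY FOXL2+ minus XY control 0.16 (adjusted p = 0.613). Sema4b (0.72), Sema4d (0.35), Sema4f (0.30) and Sema6d (0.68), the last a ligand of Plxna1 and Plxna4, were also called higher in XX than in XY controls, and Sema6c lower (-0.63).

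Sema4b and Sema6d were lower in XY FOXL2+ gonads than in XX controls (-0.54, 0.0264 and -0.56, 0.00666, log2 difference and adjusted p). The first was lost without XY FOXL2+ replicate 3 (0.0818) or 4 (0.0851) or any one XX control array (0.0577 to 0.0721), or with only the 2 groups compared (0.0896). In XX minus XY controls Sema4d was lost without XY control replicate 1 (0.0604), 2 (0.0593) or 3 (0.0502) or XX control replicate 2 (0.0677) or 3 (0.0649) and with a replicate block (0.0520), and Sema4f without XY control replicate 2 (0.0574) or 3 (0.0540) or XX control replicate 3 (0.0548) or 4 (0.0647). Sema4c, Sema6a and Sema6b had no call in the 3 comparisons. Sema6b was called higher in XX control minus XY control after quantile normalization (0.0142) and with each array centred on its median (0.0186). It was also called with only the 2 groups compared (0.0425) and with array weights (0.0327).

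**Figure D3:**
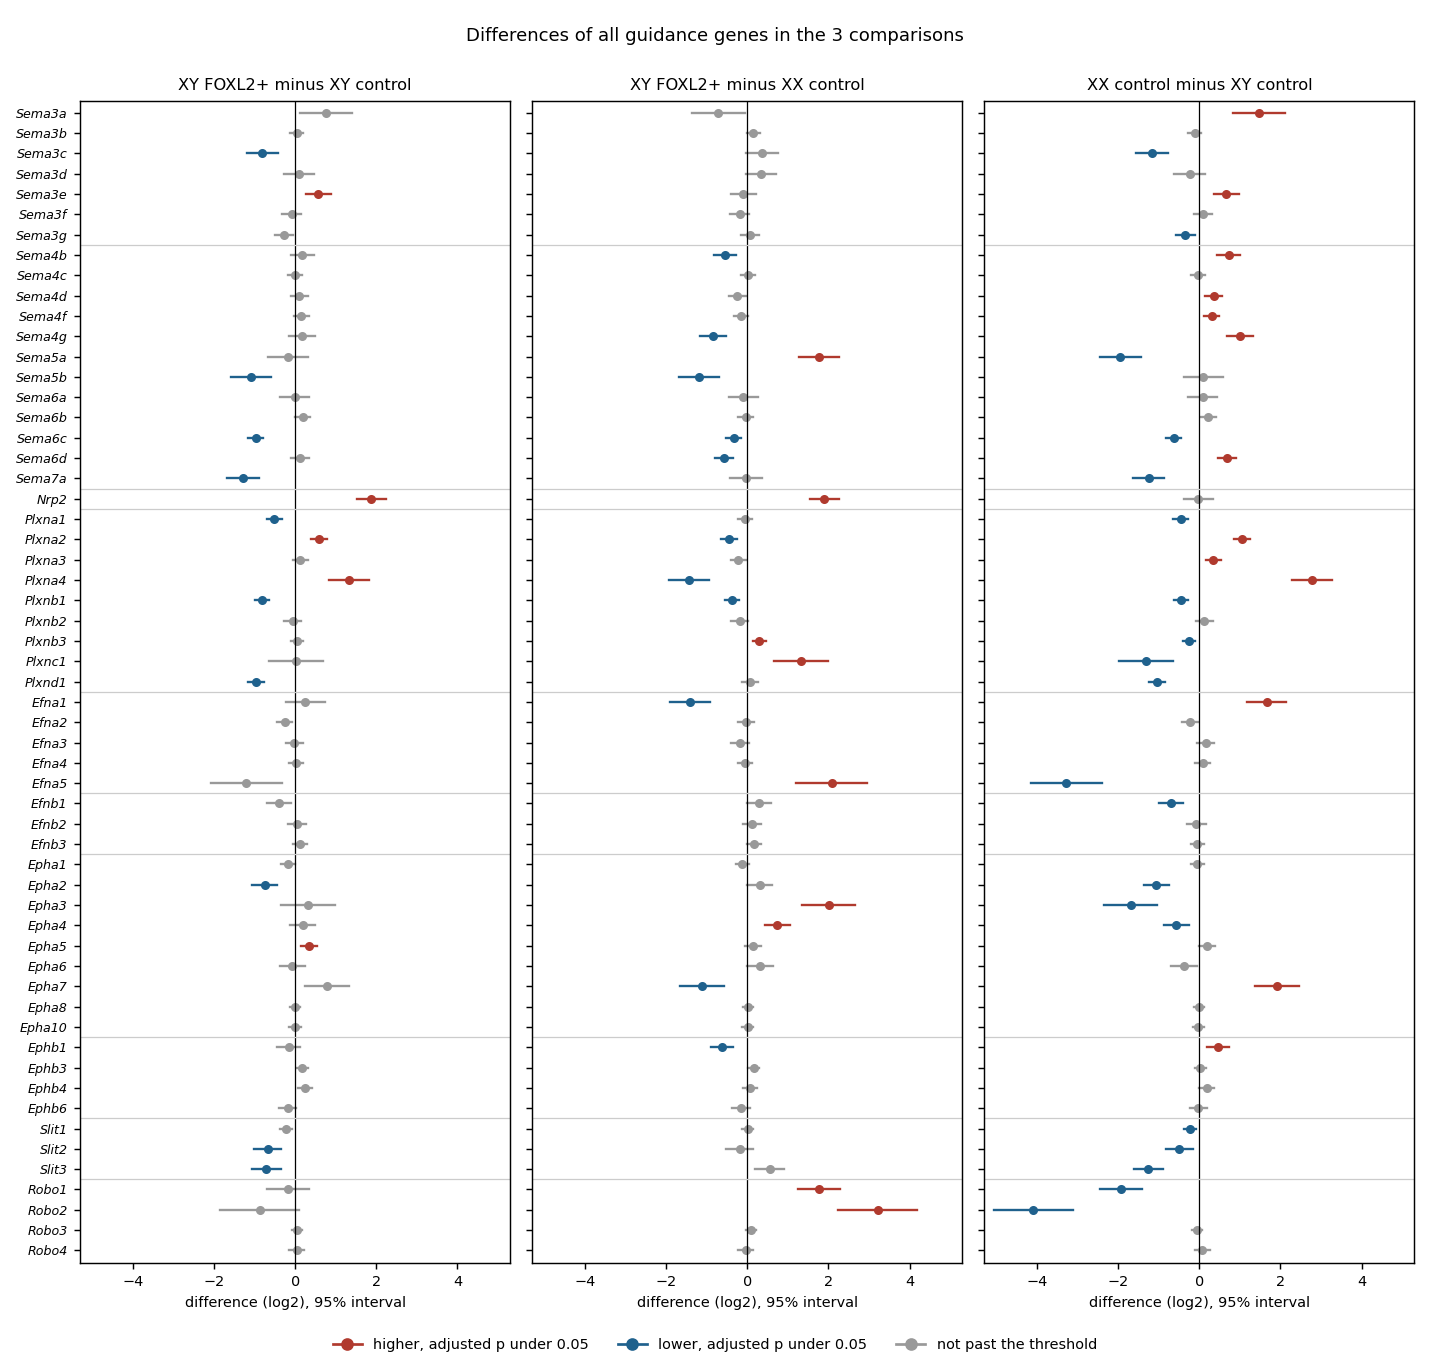
Log2 differences of all 57 guidance genes with 95% intervals, grouped by family from secreted semaphorins at the top to Robo receptors at the bottom, for XY FOXL2+ minus XY control, XY FOXL2+ minus XX control and XX control minus XY control. Red points were called higher, blue points lower, and grey points did not pass; Robo2 and Efna5 have the largest differences of XX control from XY control, -4.09 and -3.28.

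Of the 5 A-type ephrins, 1 was higher and 1 lower in XX control than in XY control, beside 10.2% and 11% of all named genes. None was called in XY FOXL2+ minus XY control, where 3.38% of all named genes were higher and 4.70% lower. Efna5, a cell-surface ligand of several EphA receptors known for mapping retinal axons, read 9.95, 8.9996, 11.06 and 11.54 on XY FOXL2+ arrays, against 8.28, 8.51, 8.04 and 8.40 on XX control arrays and 11.55, 11.54, 11.65 and 11.60 on XY control arrays. The XX controls lay far below the XY controls, and the XY FOXL2+ arrays were spread over most of the gap, replicate 2 near XX and replicate 4 just under XY. XX control was 9.7-fold lower than XY control (-3.28, SE 0.40, adjusted p = 9.87e-05) and XY FOXL2+ 4.22-fold higher than XX control (2.08, SE 0.40, adjusted p = 0.00963). Against XY controls the difference of -1.199 (SE 0.40, adjusted p = 0.103) did not pass, and it was called without XY FOXL2+ replicate 4 (0.0154).

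Efna1, an ephrin of vessels and epithelia that binds Epha2, was higher in XX. It read 9.05, 9.22, 8.14 and 8.14 on XY FOXL2+ arrays, against 9.95, 10.11, 10.06 and 10.05 on XX control arrays and 8.53, 8.61, 8.25 and 8.14 on XY control arrays. XY FOXL2+ replicates 1 and 2 were above the XY range and replicates 3 and 4 at its lower end. XX control minus XY control was 1.66 (SE 0.22, adjusted p = 0.000195), XY FOXL2+ minus XX control -1.41 (SE 0.22, adjusted p = 0.0031) and XY FOXL2+ minus XY control 0.25 (adjusted p = 0.595). Efna2, Efna3 and Efna4 had no call, but XX control minus XY control of Efna2, -0.23 (adjusted p = 0.0973), was called without XY FOXL2+ replicate 2 (0.0487), with only the 2 groups compared (0.0367) and with array weights (0.0167).

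Of the B-type ephrins, which have a cytoplasmic tail and signal in both directions, Efnb1 averaged 11.23 ± 0.29 in XY FOXL2+, 10.94 ± 0.17 in XX control and 11.63 ± 0.10 in XY control (SD, n = 4 each). The XX minus XY control difference was -0.69 (adjusted p = 0.00318), and XY FOXL2+ minus XY control, -0.40 (adjusted p = 0.114), did not pass. XY FOXL2+ minus XX control, 0.30 (adjusted p = 0.273), was called without XY FOXL2+ replicate 2 (0.0272). Efnb2, the ephrin of arteries, averaged 12.76 ± 0.07, 12.64 ± 0.14 and 12.71 ± 0.18 in XY FOXL2+, XX control and XY control, and its XY FOXL2+ minus XY control interval was -0.17 to 0.28. Its venous receptor Ephb4 had no call either, at 10.31 ± 0.03, 10.25 ± 0.12 and 10.07 ± 0.05. The difference from XY controls, 0.24 (adjusted p = 0.106), passed after quantile normalization (0.0335) and with clusters at or above the median signal alone (0.0499).

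Of the 9 EphA receptors, 1 was higher and 3 lower in XX control than in XY control, beside 10.2% and 11% of all named genes. In XY FOXL2+ minus XY control 1 was higher and 1 lower, beside 3.38% and 4.70%. Epha7, Epha3 and Epha2 differed at least 2-fold between the controls. Epha7, a receptor for A-type ephrins, read 11.57, 11.29, 10.41 and 10.20 on XY FOXL2+ arrays, against 11.89, 12.15, 11.94 and 11.98 on XX control arrays and 10.26, 10.25, 9.997 and 9.83 on XY control arrays. XX controls were highest, XY FOXL2+ replicates 1 and 2 stood between, and replicates 3 and 4 were at or just above the XY range. The differences were 1.90 (SE 0.25, adjusted p = 0.000169) for XX control minus XY control, -1.12 (SE 0.25, adjusted p = 0.0208) for XY FOXL2+ minus XX control and 0.78 (adjusted p = 0.0872) for XY FOXL2+ minus XY control. The second was lost without XY FOXL2+ replicate 3 (0.0643) or 4 (0.0553) or XX control replicate 2 (0.0682), 3 (0.0547) or 4 (0.0546), or with only the 2 groups compared (0.0702), and the third passed without XY FOXL2+ replicate 3 (0.0441) or 4 (0.0179) and with a replicate block (0.0486).

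Epha3, a receptor for A-type ephrins found on mesenchymal cells in many embryonic tissues, was lower in XX than in XY controls, the reverse of Epha7. The mean of Epha3 was highest in XY FOXL2+, but XY FOXL2+ minus XY control, 0.32 (adjusted p = 0.63, interval -0.34 to 0.97), did not pass. It read 10.20, 9.99, 11.31 and 11.28 on XY FOXL2+ arrays, against 8.84, 8.75, 8.26 and 8.89 on XX control arrays and 10.43, 10.93, 9.97 and 10.17 on XY control arrays. Replicates 3 and 4 of XY FOXL2+ exceeded every XY control, and replicates 1 and 2 were within the XY range. XX control lay below both groups, by -1.69 (SE 0.30, adjusted p = 0.00154) against XY control, and XY FOXL2+ minus XX control was 2.01 (SE 0.30, adjusted p = 0.00226). Epha4, which binds ephrins of both types, had the same order at lower signal (-0.56, adjusted p = 0.016, and 0.75, 0.00981). Its XX control minus XY control call was lost by a narrow margin after quantile normalization, and XY FOXL2+ minus XY control (0.18, 0.544) passed without XY FOXL2+ replicate 2 (0.0196).

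Epha2, an epithelial EphA receptor, was the EphA gene that fell in XY FOXL2+ gonads. It read 7.12, 6.61, 7.28 and 7.31 on XY FOXL2+ arrays, against 6.91, 6.69, 6.69 and 6.80 on XX control arrays and 7.63, 7.93, 7.77 and 7.99 on XY control arrays. All XY FOXL2+ and XX arrays lay below all XY controls. XY FOXL2+ minus XY control was -0.75 (SE 0.14, adjusted p = 0.00604) and XX control minus XY control -1.06 (SE 0.14, adjusted p = 0.000189). XY FOXL2+ minus XX control, 0.31 (adjusted p = 0.273), was called without XY FOXL2+ replicate 2 (0.0156). The XX signal lies within the range of silent genes given below.

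Ephb1 was measured by 2 clusters that disagree. In the brighter one XX control minus XY control was 0.46 (adjusted p = 0.0232) and XY FOXL2+ minus XX control -0.63 (adjusted p = 0.0129); the dimmer one gave -0.06 (adjusted p = 0.739) and 0.12 (0.509). The first of these calls also ended without XY control replicate 2 (0.0595) or 3 (0.0623) or XX control replicate 1 (0.0548) or 2 (0.0607), and the second with only the 2 groups compared (0.0556), so the direction of Ephb1 is not settled by these arrays. Ephb3 and Ephb6, a receptor without kinase activity, had no call.

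Of the 3 Slit ligands, Slit2 and Slit3 fell in XY FOXL2+ gonads against XY controls, and all 3 were called lower in XX controls. Of all named genes 4.70% and 11% were called lower in these comparisons. Slit1 had all 3 group means at or below the highest silent level given below, and its call was lost under several settings listed there. Slit3 read 8.73, 8.67, 9.36 and 9.40 on XY FOXL2+ arrays, against 8.53, 8.59, 8.29 and 8.54 on XX control arrays and 9.76, 9.92, 9.70 and 9.62 on XY control arrays. The XY FOXL2+ arrays lay between the control groups and overlapped neither, with replicates 3 and 4 nearer XY. The differences were -0.71 (SE 0.16, adjusted p = 0.0185) for XY FOXL2+ minus XY control, -1.26 (SE 0.16, adjusted p = 0.000146) for XX control minus XY control and 0.55 (adjusted p = 0.0733) for XY FOXL2+ minus XX control. The first was lost without XY control replicate 2 (0.0563) and with only the 2 groups in the fit (0.0694), and the third was called without XY FOXL2+ replicate 1 (0.0310) or 2 (0.0175), with array weights (0.00465) and with clusters at or above the median signal alone (0.0492).

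Slit2, the Robo ligand that limits where the ureteric bud forms in the kidney, averaged 11.92 ± 0.24 in XY FOXL2+, 12.10 ± 0.23 in XX control and 12.59 ± 0.22 in XY control (SD, n = 4 each). XY FOXL2+ and XX arrays overlapped each other and lay below the XY arrays. XY FOXL2+ minus XY control was -0.67 (SE 0.15, adjusted p = 0.0174) and was lost without XY control replicate 1 (0.0532) or 2 (0.0551). XX control minus XY control, -0.49 (SE 0.15, adjusted p = 0.0428), was lost after quantile normalization (0.0856), with each array centred on its median (0.0586), with a replicate block (0.0757) and without any one of 7 arrays (0.0515 to 0.130): XY control replicates 1 to 3, XX control replicates 2 to 4 and XY FOXL2+ replicate 2.

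Robo2 had the largest difference between the controls of the 57 genes. Robo2 is a receptor for Slit2 and Slit3 in axon crossing and kidney development, and its loss with Slit2 gives extra ureteric buds in the mouse. It read 11.40, 9.94, 12.65 and 12.64 on XY FOXL2+ arrays, against 8.36, 8.44, 8.44 and 8.51 on XX control arrays and 12.69, 12.51, 12.50 and 12.42 on XY control arrays. XX controls were uniformly low, XY FOXL2+ replicates 3 and 4 were within the XY range, and replicates 1 and 2 were in the gap. XX control was 17.1-fold below XY control (-4.09, SE 0.45, adjusted p = 4.19e-05) and XY FOXL2+ 9.3-fold above XX control (3.22, SE 0.45, adjusted p = 0.00141). XY FOXL2+ minus XY control was -0.88 (adjusted p = 0.307), with an interval of -1.85 to 0.09.

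Robo1, another receptor for Slits, read 11.03, 10.63, 11.93 and 11.97 on XY FOXL2+ arrays, against 9.70, 9.64, 9.54 and 9.60 on XX control arrays and 11.58, 11.55, 11.60 and 11.51 on XY control arrays. XY FOXL2+ replicates 3 and 4 were above the XY controls, replicates 1 and 2 below them, and all 4 above XX. XX control minus XY control was -1.94 (SE 0.24, adjusted p = 0.000104) and XY FOXL2+ minus XX control 1.77 (SE 0.24, adjusted p = 0.00118), with -0.17 (-0.68 to 0.35) against XY control. Robo4, the endothelial Robo, averaged 7.45 ± 0.09, 7.49 ± 0.14 and 7.42 ± 0.09 in XY FOXL2+, XX control and XY control and had no call. Slit2 and Slit3 were called lower than in XY controls in XY FOXL2+ gonads, and Robo1 and Robo2 were not. The Robo2 difference (-0.88) was still larger in size than those of Slit2 (-0.67) and Slit3 (-0.71), and its XY FOXL2+ arrays were widely spread (SD 1.29). Both Slit calls were lost under some settings, as given above. The difference between ligands and receptors was not tested.

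**Figure D4:**
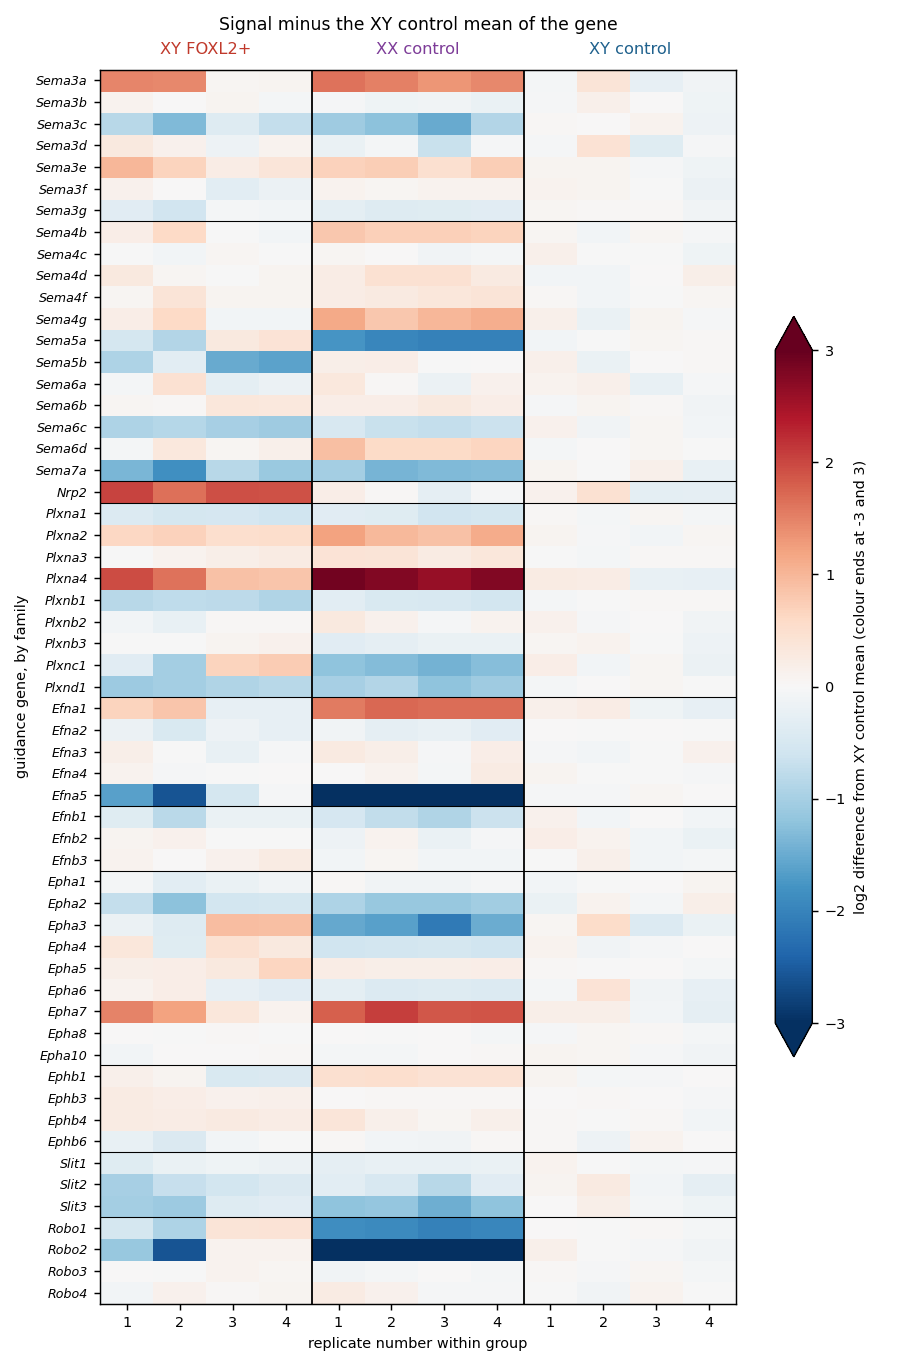
Log2 signal of each of the 57 guidance genes on each of the 12 arrays minus the gene's mean over XY controls, with families separated by lines and columns ordered XY FOXL2+, XX control, XY control. Red is above and blue below the XY control mean, and colours end at -3 and 3; the Nrp2 row is red on the 4 XY FOXL2+ arrays, and the Robo2 and Efna5 rows are darkest blue on the XX control arrays.

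Several marker lists also differed among the XY FOXL2+ arrays. The mean log2 signal of 6 Sertoli cell genes was 8.56, 7.56, 9.66 and 9.45 on XY FOXL2+ replicates 1 to 4, against 6.72 to 6.84 in XX controls and 11.02 to 11.40 in XY controls. That of 4 fetal Leydig cell genes was 8.66, 7.91, 11.09 and 11.17, against 7.83 to 8.07 in XX controls and 15.78 to 16.17 in XY controls. For 10 fetal granulosa cell genes it was 8.76, 9.39, 7.75 and 7.73, against 9.65 to 9.92 in XX controls and 7.27 to 7.34 in XY controls. The granulosa list includes Foxl2, the gene that the transgene drives, so its mean on XY FOXL2+ arrays is raised in part by design. Replicate 2, the lowest XY FOXL2+ array for Robo1, Robo2, Efna5, Sema5a, Epha3 and Plxnc1, was also the lowest for Sertoli and Leydig markers and the highest for granulosa markers. Foxl2 itself was highest on replicate 2 (8.62), and Nrp2, which did not differ between the controls, was lowest there (10.25). Plxna4, Epha7 and Sema3a, which were higher in XX than in XY controls, were highest on replicate 1 rather than 2. The interstitial list mean was 11.35, 10.996, 11.77 and 11.80 on XY FOXL2+ replicates 1 to 4. The list means on XY FOXL2+ replicates 1 to 4 were 11.55, 11.54, 11.03 and 11.07 for gonadal soma, 7.18, 7.06, 6.44 and 6.54 for mesonephros, and 10.91, 11.48, 10.12 and 9.85 for erythroid cells. In these 3 lists, as in the granulosa list, replicates 1 and 2 were above replicates 3 and 4, while in the Sertoli, Leydig and interstitial lists they were below. The part of cell type make-up or of the Foxl2 level in the guidance genes was not tested.

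Markers of other cell types that use guidance genes were read as well. Beside their counts, 3.38% of all named genes rose and 4.70% fell in XY FOXL2+ minus XY control. In XX control minus XY control 10.2% were higher and 11% lower. Of 6 neural and glial markers measured, 1 rose (Stmn2) and 1 fell (Tubb3, -1.05, adjusted p = 6.98e-05) in XY FOXL2+ minus XY control, and 1 was higher and 4 lower in XX control minus XY control. Their list mean was 6.59 to 6.75 in XY FOXL2+, 6.298 to 6.41 in XX control and 6.90 to 7.02 in XY control. The neural crest gene Sox10 read 6.46 to 6.64, 6.15 to 6.404 and 6.65 to 6.94 in that order, within the range of silent genes. Of 5 mesonephric markers 1 rose and 2 fell, with list means of 6.44 to 7.18, 7.21 to 7.62 and 6.34 to 6.62. Of 5 interstitial markers 1 rose and 3 fell, with list means of 10.996 to 11.80, 10.58 to 10.93 and 12.07 to 12.31. Macrophage markers rose in 4 of 9 (7.34 to 7.495, 6.997 to 7.24 and 7.01 to 7.23). Meiotic germ cell markers were higher than in XY controls in 4 of 4 genes, in XY FOXL2+ (median 3.11) and in XX control (median 4.27), with list means of 11.38 to 13.37, 13.14 to 13.44 and 8.57 to 8.92. Of 6 general germ cell markers none was called in XY FOXL2+ minus XY control, and 1 was higher and 2 lower in XX control minus XY control. The part of all these lists in the guidance genes was not tested.

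Other guidance systems were read from a list of 20 related genes, of which 19 were measured. In XY FOXL2+ minus XY control 6 rose and none fell, beside 3.38% and 4.70% of all named genes, with a median of 0.18 against 0.02 over all named genes. Flrt2, an adhesion protein that binds Unc5 receptors, rose by 1.25 (adjusted p = 0.000188), Ntn4, a netrin of basement membranes, by 0.74 (0.0191), Nrcam, a neural adhesion molecule, by 0.68 (0.00137), and Flrt3 by 0.53 (0.0076). In XX control minus XY control 7 were higher and 2 lower, beside 10.2% and 11% of all named genes. Unc5c, a netrin receptor, was lower in XX (-1.05, adjusted p = 0.00383) and higher in XY FOXL2+ than in XX controls (1.09, adjusted p = 0.0104), with 0.04 against XY controls.

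Of 29 intracellular effectors of guidance receptors, 3 rose and 4 fell in XY FOXL2+ minus XY control (median -0.08), beside 3.38% and 4.70% of all named genes. In XX control minus XY control 5 were higher and 10 lower (median -0.08), beside 10.2% and 11% of all named genes. Srgap1, whose product binds the Robo1 tail, rose, at 1.27 (SE 0.09, adjusted p = 2.63e-06), and was higher in XX controls by 0.87 (2.71e-05). Srgap2 rose by 0.53 (0.0244). Dpysl5, of the collapsin response mediators that act in semaphorin signalling, fell by 0.94 (adjusted p = 0.000412) and was lower in XX controls (-1.18, adjusted p = 2.75e-05).

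Low signals limit part of the set. Genes that should be silent gave a scale: on XX control arrays Uba1y averaged 6.94, Kdm5d 6.27, Uty 6.24 and Eif2s3y 5.99, and on XY control arrays Xist averaged 7.07, and 14 of the 57 guidance genes had all 3 group means at or below 7.07. Of these 14, Epha5, Plxnb3, Sema3g, Sema4f and Slit1 had calls, of at most 0.34 on the log2 scale in size. Epha5, the one of them called in XY FOXL2+ minus XY control (0.33, adjusted p = 0.0457), lost its call in the fit of the 2 groups (0.138), with a replicate block (0.0777), and without any one XY control (0.0798 to 0.110) or XX control array (0.0629 to 0.0670) or XY FOXL2+ replicate 3 (0.0633) or 4 (0.0527). Its XX control minus XY control difference, 0.19 (adjusted p = 0.192), was called without XY FOXL2+ replicate 4 (0.0423), with only the 2 groups compared (0.0440) and with each array centred on its median (0.0492). Plxnb3 lost its XX control minus XY control call (-0.25) without XY control replicate 1, 2 or 3 or XX control replicate 1 or 2 (0.0643 to 0.0851), and with a replicate block (0.0643). Its XY FOXL2+ minus XX control call (0.30) ended without XY FOXL2+ replicate 3 or 4 or any one XX control array (0.0544 to 0.0925). The latter call also ended with only the 2 groups compared (0.0538) and with a replicate block (0.0682). In XX control minus XY control, Sema3g (-0.34) lost its call without any one XX control array or XY control replicate 1, 2 or 3 (0.0634 to 0.0950), and Slit1 (-0.23) without any one of the 8 control arrays (0.0520 to 0.105). Both calls also ended after quantile normalization (0.0643 for Sema3g, 0.0754 for Slit1), with each array centred on its median (0.0535, 0.0804) and with a replicate block (0.0604, 0.0801). Slit1 was called lower in XY FOXL2+ minus XY control after quantile normalization (0.0476) and with adjustment over named clusters only (0.0407). Efnb3, Epha1, Epha6, Epha8, Epha10, Ephb3, Robo3, Sema3b and Sema6b had no call, which at these signals does not show that they were absent or alike. Epha6 was called lower in XX control minus XY control with a replicate block (0.0463) and with array weights (0.0363). Ephb3 was called higher in XY FOXL2+ minus XY control with adjustment over named clusters only (0.0413).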

How the data were processed

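Values were the authors' deposited log2 signals, 1 per transcript cluster, from 2.54 to 19.49; base 2 was taken from the range of the values, and their summarization and normalization were not given in the sources used here. After 6732 control probe sets were left out, 65956 clusters were tested with no filter on signal. Platform symbols, updated through RefSeq (1430 updates), gave 1 gene to 31207 clusters, several to 1543, which stayed unnamed, and 33206 are not listed. Limma 3.58.1 in R 4.3.3 (lmFit, eBayes with an intensity trend) fitted all 12 arrays with a mean per group (9 residual degrees of freedom), two-sided. Intervals are 95% intervals from that fit; the number of arrays limits the precision. The fit was tested on simulated data. Genes given with every array were those called and at least 2-fold apart in XY FOXL2+ minus XY control or XX control minus XY control, at most 24; other called genes were named with their difference. The genes and lists were chosen with earlier results of these data known. No litter or batch is given, so p-values measure the spread between these gonad pairs.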

Additional observations from a re-analysis of the deposited data

Results flagged for a closer look

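In 4 of 171 groups of 4 arrays (57 genes in 3 groups) 1 array lay far from the other 3, and chance gives about 5% of groups. Sema4f read 6.49 on XY FOXL2+ replicate 2 against 6.16 to 6.19 on the other XY FOXL2+ arrays. Efnb3 read 6.61 on XX control replicate 2 against 6.46 to 6.47. Sema6b read 6.76 on XX control replicate 3 against 6.66 to 6.67. Sema3g read 6.61 on XY control replicate 4 against 6.74 to 6.77. These signals all lie within the range of silent genes.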

How the results depend on the processing

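The alternatives were quantile normalization, median centring, only the 2 groups compared, a replicate block, array weights, no intensity trend, a filter at the median signal, adjustment over named clusters only, the dimmer cluster of a gene, and leaving out each array. Of 68 calls in the 3 comparisons 47 held under every alternative run and 21 were lost under 1 or more; 14 results without a call gained one under 1 or more. The number of genes higher in XY FOXL2+ minus XY control was 5, and 3 with only the 2 groups compared; leaving out single arrays gave 3 to 5, with 3 without XY control replicate 1, 2, 3 or 4. Lower in XY FOXL2+ minus XX control were 11, and 5 with only the 2 groups compared; without single arrays the count was 7 to 11, with 7 without XY FOXL2+ replicate 4, XX control replicate 2 or XX control replicate 3. The other 4 counts stayed within 1.5 times (8 to 11 lower in XY FOXL2+ minus XY control, 7 to 12 higher in XY FOXL2+ minus XX control, 10 to 15 higher and 16 to 22 lower in XX control minus XY control). Ephb1 changed sign with its dimmer cluster (-0.059 in XX control minus XY control and 0.12 in XY FOXL2+ minus XX control); the cause was not tested. Foxl2 kept its direction and call in XY FOXL2+ minus XY control under each alternative (1.84 to 2.47). Same-numbered arrays of different groups were not paired in the labels, and 2 of 12 such pairs had deviations that correlated over 0.1 (range -0.09 to 0.18). With the replicate block 5 genes were higher and 10 lower in XY FOXL2+ minus XY control, 12 and 17 in XX control minus XY control, and 8 and 10 in XY FOXL2+ minus XX control. Calls for the 14 genes with signals in the range of silent genes are limited by signal over background.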
